A study of Mus musculus with 12 samples.

Results

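Transcripts of 9 genes that mark the resting state of naïve T cells were followed through CD4+ T cells sorted by memory state and by GM-CSF history. The genes were given as a list and found in the deposited table by Entrez identifier, and all 9 of them were among the 17523 genes of the table. They are the TCF/LEF factors *Tcf7* and *Lef1*, the Krüppel-like factors *Klf2* and *Klf3*, the sphingosine-1-phosphate receptor gene *S1pr1*, the repressor *Bach2*, the chromatin organizer *Satb1* and the forkhead factors *Foxo1* and *Foxp1*. A naïve T cell stays small, out of the cell cycle and in circulation between blood and lymphoid organs, and this state is held by transcription factors. FOXO1 keeps *Klf2* and *Il7r* expressed, and KLF2 in turn activates *S1pr1*, whose product lets T cells leave lymphoid tissue along a gradient of sphingosine-1-phosphate. TCF1 (the product of *Tcf7*) and LEF1 guard naïve and memory potential, while BACH2 and FOXP1 restrain effector differentiation.

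RNA came from spleens of naïve C57BL/6 *Gr/fr* mice, 3 in number per the study's methods, with age and sex not stated for the sequencing. All groups carry the same alleles: an iCre and BFP cassette behind *Csf2* (the gene for GM-CSF), driven by the gene's own promoter, and eYFP in Rosa26 behind a loxP-flanked stop. YFP therefore marks cells that express GM-CSF or did so in the past, and the mice come from a single targeted line. CD4+ T cells were sorted by surface markers as naïve (CD44-) or effector memory (TEM, CD44hi) and each as YFP- or YFP+, which gave 4 groups of 3 libraries: YFP- naïve, YFP+ naïve, YFP- TEM and YFP+ TEM. The mice had not been immunized. Comparisons by YFP status and by memory use the same libraries, so their values are set side by side and not correlated. Values are normalized counts, that is reads divided by a library size factor, compared on the log2 scale (after 1 was added) in a limma fit of 15587 genes. A gene counts as called where p, adjusted over all these genes by Benjamini and Hochberg, was at most 0.05. All 9 genes passed the filter on low values.

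Each library held between 40974124 and 57822269 reads on genes. The sort marker *Cd44* went with the labels, with a log2 fold change in TEM against naïve cells of 2.97 without YFP and 3.21 with it, and *Cd4* lay at 41908 ± 4498 normalized counts or more in the mean of every group. The defining T cell genes *Cd3e* and *Trac* had means of at least 35463 and 51051 normalized counts in all groups. Transcripts of other cells were present too and differed between the groups. Summed over 10 genes of monocytes and conventional dendritic cells, normalized counts ranged from 200 to 696 in YFP- naïve, 248 to 3535 in YFP+ naïve, 12428 to 24408 in YFP- TEM and 2147 to 4399 in YFP+ TEM libraries, and the highest naïve value was that of YFP+ replicate 2.

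The 9 genes lie on 7 chromosomes of GRCm38.p6, the assembly behind mm10: *Tcf7* at chr11:52246527-52283383, *Lef1* at chr3:131110297-131224357, *Klf2* at chr8:72319062-72321654, *Klf3* at chr5:64803521-64832901, *S1pr1* at chr3:115710433-115715055, *Bach2* at chr4:32238413-32586109, *Satb1* at chr17:51736187-51833290, *Foxo1* at chr3:52268337-52350109 and *Foxp1* at chr6:98925342-99522746. Annotated neighbours share sequence with 4 of them. *Skp1* overlaps *Tcf7*, *Bach2os* overlaps *Bach2* and *Gm19665* is the overlapping gene of *Foxp1* that the table also lists, while the 2 overlapping *Klf3* (*Gm38457* and *Gm31684*) are not listed. The strand setting of the counting is not given in the sources used here, so reads in such overlaps cannot be assigned with certainty.

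Promoter windows were available from RefSeq (GRCm38.p6) for 8 of the 9 genes, with *S1pr1* not listed. A window holds 300 bases, 250 before and 50 after an annotated start. The most upstream of the windows available for each gene was searched on both strands. For *Tcf7*, *Bach2* and *Foxp1* this window lies inside the gene's interval, so it is not at the upstream end of the gene. The letters sought were CCACCC (bound by Krüppel-like factors), CTTTGAA or CTTTGAT (bound by TCF/LEF factors) and GTAAACA (bound by FOXO factors). CCACCC occurred in 4 of the 8 windows, against 30.8% of 27025 windows of all genes. Neither the TCF/LEF letters (8.79% of all windows) nor the FOXO letters (3.52%) occurred in any of these 8 windows. Windows at further annotated starts of the same genes were not counted. Among them a *Tcf7* window (chr11:52282546-52282845) held 1 FOXO and 1 CCACCC match, and a *Foxp1* window (chr6:99266466-99266765) 1 TCF/LEF match. CCACCC also occurred in further windows of *Lef1*, *Satb1* and *Foxp1*. The 4 windows with a match and that of *Satb1*, the gene with the steepest fall and no match in this window, are printed 5′ to 3′ on the strand of the gene. Matches to CCACCC or its complement are in capitals. *Lef1* is at chr3:131110047-131110346 (plus strand), *Klf2* at chr8:72318812-72319111 (plus), *Klf3* at chr5:64803271-64803570 (plus), *Foxp1* at chr6:99520944-99521243 (minus) and *Satb1* at chr17:51833241-51833540 (minus).
Lef1: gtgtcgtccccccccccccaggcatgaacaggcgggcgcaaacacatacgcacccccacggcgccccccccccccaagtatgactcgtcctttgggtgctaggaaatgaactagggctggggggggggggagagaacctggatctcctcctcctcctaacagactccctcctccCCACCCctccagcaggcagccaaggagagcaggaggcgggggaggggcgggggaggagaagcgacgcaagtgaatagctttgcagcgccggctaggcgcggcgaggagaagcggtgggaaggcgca
Klf2: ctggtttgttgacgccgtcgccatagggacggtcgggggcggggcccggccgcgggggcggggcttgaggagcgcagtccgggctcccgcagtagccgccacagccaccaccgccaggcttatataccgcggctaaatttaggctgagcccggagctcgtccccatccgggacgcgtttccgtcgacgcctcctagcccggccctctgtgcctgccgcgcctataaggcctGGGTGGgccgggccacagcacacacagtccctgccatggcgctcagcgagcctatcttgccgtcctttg
Klf3: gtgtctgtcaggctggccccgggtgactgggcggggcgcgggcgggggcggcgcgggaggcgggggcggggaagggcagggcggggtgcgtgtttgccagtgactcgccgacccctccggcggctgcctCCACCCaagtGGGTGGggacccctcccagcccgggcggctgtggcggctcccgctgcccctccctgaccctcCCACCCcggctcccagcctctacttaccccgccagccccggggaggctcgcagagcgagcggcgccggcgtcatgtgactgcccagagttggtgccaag
Foxp1: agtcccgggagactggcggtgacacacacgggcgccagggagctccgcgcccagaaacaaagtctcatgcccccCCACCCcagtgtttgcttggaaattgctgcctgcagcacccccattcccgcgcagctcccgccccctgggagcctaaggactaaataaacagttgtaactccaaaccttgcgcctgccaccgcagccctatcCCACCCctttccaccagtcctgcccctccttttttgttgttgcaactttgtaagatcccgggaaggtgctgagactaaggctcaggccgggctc
Satb1: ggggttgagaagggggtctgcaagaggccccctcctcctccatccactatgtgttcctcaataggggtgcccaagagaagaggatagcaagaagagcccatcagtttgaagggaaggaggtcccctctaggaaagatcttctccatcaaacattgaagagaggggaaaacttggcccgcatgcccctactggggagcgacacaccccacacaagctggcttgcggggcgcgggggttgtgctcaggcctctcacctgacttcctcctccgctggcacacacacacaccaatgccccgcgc

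*Klf3* held 3 such matches, *Foxp1* 2, and *Lef1* and *Klf2* 1 each. A match describes letters only, and the windows show no binding.

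**Figure D1:**
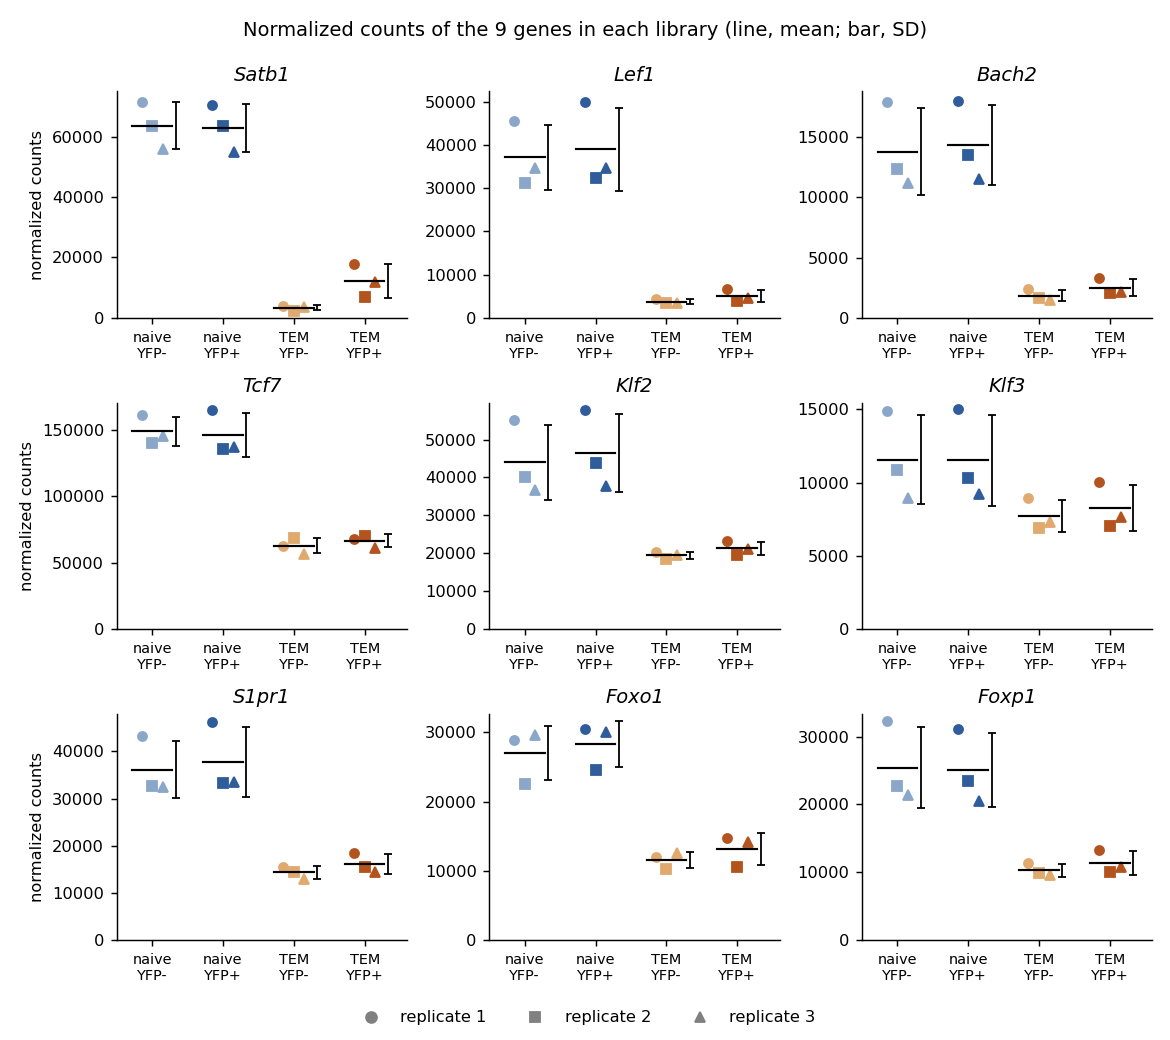
Normalized counts (y axis, linear from 0) of the 9 genes in each of the 12 libraries, by group, with the replicate as symbol shape, the mean as a line and the SD as a bar. In 8 panels every TEM library lies below every naïve library, *Klf3* being the exception with a YFP+ TEM library of 10032 normalized counts, and *Satb1* alone separates the YFP- from the YFP+ TEM libraries.

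Per length of exon, *Tcf7* was the most abundant of the 9 in every group, with 56775 ± 4192 normalized counts per kb in YFP- naïve cells (SD, n = 3) and 23872 ± 2189 in YFP- TEM cells. *Klf2* followed with 23834 ± 5362 and 10525 ± 480, and *S1pr1* was next with 11859 ± 2001 and 4710 ± 428 per kb. The libraries of these 3 genes did not overlap with those of the next gene in the order, in any of the 4 groups. Further down the order changed with memory. In YFP- naïve cells *Lef1* (4226 ± 862 per kb) overlapped with *Satb1* (3344 ± 409) and *Satb1* with *Foxo1* (3118 ± 453), while *Foxo1* did not overlap with *Foxp1* (1850 ± 430). Below it *Foxp1* overlapped with *Bach2* (1387 ± 360) and *Bach2* with *Klf3* (1029 ± 269). In YFP- TEM cells the order was *Foxo1* (1336 ± 140 per kb), *Foxp1* (748 ± 72.3), *Klf3* (684 ± 96.8), *Lef1* (428 ± 65.5), *Bach2* (185 ± 48.1) and *Satb1* (173 ± 43.7), where *Foxp1* overlapped with *Klf3* and *Bach2* with *Satb1*. *Klf3* was thus the least abundant of the 9 per length in naïve cells and the sixth in order in TEM cells. The length used merges all annotated exons of a gene, from 1847 bases for *Klf2* to 19027 for *Satb1*, and the order depends on it. Without scaling by length, *Satb1* had 63617 ± 7778 normalized counts in YFP- naïve cells, above the 44022 ± 9904 of *Klf2*.

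The comparison of TEM with naïve cells asks how far memory cells have left the resting program, and it was made separately without and with a GM-CSF history, on libraries that are not shared. The means of all 9 genes were lower in TEM cells in both. Among YFP- cells 9 of 9 were called lower (background, 19.9% of all tested genes called lower and 49.8% in either direction), and in 9 of 9 every TEM library lay below every naïve library (background, 25.2%). Among YFP+ cells 8 of 9 were called lower (background, 16.7%, and 41.4% in either direction) and the same 8 did not overlap (background, 21.3%). The median log2 fold change of the 9 genes was -1.29 without and -1.13 with YFP, against 0.05 and 0.03 over all tested genes. In bulk RNA, fewer cells that express a gene and less RNA per cell cannot be told apart.

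*Satb1*, *Lef1* and *Bach2* showed the largest differences. *Satb1*, which folds chromatin into loops and is needed in thymic T cell development, had 71465, 63475 and 55911 normalized counts in YFP- naïve replicates 1 to 3, 70554, 63389 and 54799 in YFP+ naïve, 3806, 2342 and 3754 in YFP- TEM and 17918, 6887 and 11945 in YFP+ TEM replicates. Naïve libraries were alike with and without YFP, YFP- TEM libraries were lowest and YFP+ TEM libraries lay between, with no overlap between any TEM and any naïve library. The fall was 19.6-fold without YFP (log2 fold change -4.30, SE 0.29, adjusted p = 1.52e-07) and 5.50-fold with YFP (log2 fold change -2.46, SE 0.29, adjusted p = 2.16e-05). In order of log2 fold change, *Satb1* stood at place 31 from the lowest of 15587 genes without YFP and at place 163 with it.

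*Lef1*, a partner of TCF1 on the same DNA letters, had 45649, 31129 and 34630 normalized counts in YFP- naïve, 50088, 32277 and 34648 in YFP+ naïve, 4421, 3383 and 3471 in YFP- TEM and 6734, 3968 and 4676 in YFP+ TEM replicates. Every naïve library stood above every TEM library, and YFP- and YFP+ libraries overlapped within each cell type. The log2 fold changes were -3.30 (SE 0.22, adjusted p = 1.40e-07) without and -2.94 (SE 0.22, adjusted p = 4.63e-07) with YFP, or 9.82-fold and 7.65-fold lower. *Bach2*, a repressor that competes with AP-1 factors at effector genes, had 17862, 12301 and 11192 normalized counts in YFP- naïve, 17936, 13495 and 11493 in YFP+ naïve, 2384, 1621 and 1504 in YFP- TEM and 3314, 2080 and 2142 in YFP+ TEM replicates. Replicate 1 was the highest in each group, and naïve and TEM libraries did not overlap. The fall of *Bach2* was 7.51-fold without YFP (log2 fold change -2.91, SE 0.24, adjusted p = 9.28e-07) and 5.73-fold with it (log2 fold change -2.52, SE 0.24, adjusted p = 4.30e-06).

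The remaining 6 genes showed smaller differences. *Tcf7* had 161392, 140293 and 145419 normalized counts in YFP- naïve, 165215, 135506 and 137488 in YFP+ naïve, 62786, 68350 and 56860 in YFP- TEM and 68076, 70451 and 61078 in YFP+ TEM replicates. TEM libraries thus kept a high level of *Tcf7*, well separated from the naïve ones. The log2 fold changes were -1.25 (SE 0.14, adjusted p = 1.24e-05) and -1.13 (SE 0.14). The 95% intervals of the log2 fold change without YFP, -1.56 to -0.94 for *Tcf7* and -3.77 to -2.83 for its partner *Lef1*, did not overlap.

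*Klf2*, the driver of the circulation program, had 55290, 40079 and 36696 normalized counts in YFP- naïve, 57809, 43705 and 37870 in YFP+ naïve, 20331, 18558 and 19427 in YFP- TEM and 23110, 19587 and 21181 in YFP+ TEM replicates. The naïve libraries scattered more than the TEM libraries, with a coefficient of variation of 22.5% against 4.56% among YFP- cells, and the groups did not overlap. The log2 fold changes of *Klf2* were -1.16 (SE 0.17, adjusted p = 0.000106) and -1.11 (SE 0.17, adjusted p = 0.000213). *S1pr1*, the receptor gene activated by KLF2, had 43160, 32694 and 32513 normalized counts in YFP- naïve, 46310, 33236 and 33571 in YFP+ naïve, 15544, 14533 and 12958 in YFP- TEM and 18546, 15580 and 14382 in YFP+ TEM replicates. All of its TEM libraries lay below its naïve libraries, with log2 fold changes of -1.32 (SE 0.16, adjusted p = 1.86e-05) and -1.21 (SE 0.16, adjusted p = 5.62e-05).

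*Klf3*, a repressor of the same family that is itself a target of other Krüppel-like factors, had 14892, 10864 and 8963 normalized counts in YFP- naïve, 15047, 10294 and 9233 in YFP+ naïve, 8928, 6869 and 7290 in YFP- TEM and 10032, 7058 and 7678 in YFP+ TEM replicates. The highest YFP- TEM library lay just under the lowest YFP- naïve library, and among YFP+ cells the groups overlapped. The log2 fold change was -0.57 (SE 0.21, adjusted p = 0.0425) without YFP, a call that held in 7 of 12 fits that each left out 1 library. It was lost without YFP- naïve replicate 1 (-0.37, adjusted p = 0.181) or 2 (-0.60, 0.0700), YFP- TEM replicate 2 (-0.49, 0.131) or 3 (-0.53, 0.106) and YFP+ TEM replicate 3 (-0.57, 0.0537). With YFP it was -0.47 (SE 0.21, adjusted p = 0.101), which did not pass the test. Among YFP- cells *Klf3* was lower in the TEM library in 3 of 3 pairs of the same replicate number, as all 9 genes were (3 of 3 pairs lower in 32.6% of all tested genes).

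The forkhead genes had log2 fold changes between -1.29 and -1.12. *Foxo1*, which holds the naïve program and is inactivated by AKT, had 28946, 22494 and 29603 normalized counts in YFP- naïve, 30476, 24572 and 30025 in YFP+ naïve, 11957, 10216 and 12544 in YFP- TEM and 14809, 10500 and 14209 in YFP+ TEM replicates. Here replicate 2 was the lowest in each group. The log2 fold changes were -1.22 (SE 0.15, adjusted p = 3.08e-05) and -1.12 (SE 0.15, adjusted p = 9.08e-05). *Foxp1*, a repressor needed for quiescence, had 32225, 22693 and 21383 normalized counts in YFP- naïve, 31066, 23494 and 20558 in YFP+ naïve, 11430, 9828 and 9610 in YFP- TEM and 13349, 10006 and 10713 in YFP+ TEM replicates. Its TEM libraries stood below its naïve libraries without overlap, with log2 fold changes of -1.29 (SE 0.18, adjusted p = 7.51e-05) and -1.13 (SE 0.18, adjusted p = 0.000294).

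**Figure D2:**
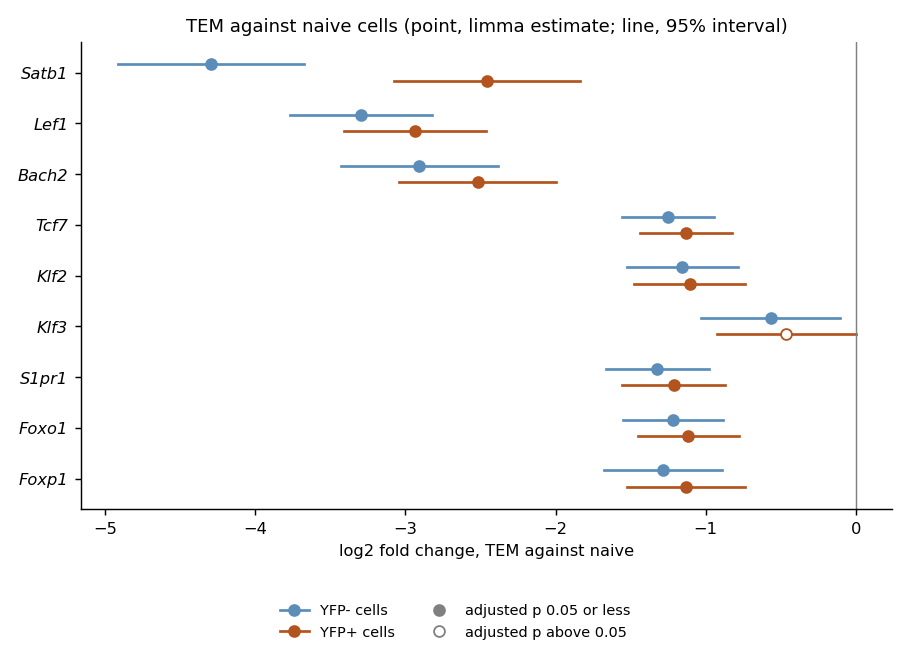
Log2 fold change of TEM against naïve cells (x axis) for the 9 genes, in YFP- and in YFP+ cells, with limma estimates as points (filled at an adjusted p of 0.05 or less) and 95% intervals as lines. *Satb1*, *Lef1* and *Bach2* lie from -4.30 to -2.46, the other genes from -1.32 to -0.47.

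Transcripts of other cells and of regulatory T cells moved with memory as well. In YFP- cells, 9 of 10 plasmacytoid dendritic cell genes were called higher in TEM than in naïve libraries (background, 29.9% of all tested genes), and their summed normalized counts rose from between 8683 and 9592 (with *Klk1* at 0 in every YFP- naïve library) to between 19033 and 28529. Of the 10 monocyte and conventional dendritic cell genes, 8 were called higher in YFP- TEM cells. Of 9 B cell genes 6 were called lower there and 1 higher (background, 19.9% lower). Of 8 NK cell genes 1 was called lower and 5 higher. The 2 CD8 genes went 1 each way, and of 4 tested γδ T cell genes 1 was called lower and 3 higher. All 6 regulatory T cell genes were called higher, with sums from 8083 to 10133 in YFP- naïve and from 52141 to 71708 in YFP- TEM libraries. Regulatory T cells are themselves CD4+ T cells, and the sort described for the sequencing names no marker that excludes them. The sums of 8 genes of CD4+ T cells overlapped, with 197801 to 255539 in YFP- naïve and 225817 to 267319 in YFP- TEM libraries. In YFP+ cells (background, 16.7% lower and 24.7% higher) 6 of 10 plasmacytoid dendritic cell genes were called higher and 1 lower. Of the monocyte and conventional dendritic cell genes 5 were called higher, and of the NK cell genes 7 higher and 1 lower. All 6 regulatory T cell genes were called higher in YFP+ cells too. There 0 of 9 B cell genes were called, 1 CD8 gene was called lower, and 3 γδ T cell genes were called higher and 1 lower. The part of these transcripts in the falls of the 9 genes was not tested.

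Whether a GM-CSF history goes with a weaker resting program inside naïve cells is asked by the comparison of YFP+ with YFP- naïve cells. None of the 9 genes was called (0 of 9 in limma, edgeR and DESeq2, and 0 of 9 at an unadjusted p under 0.05, with 0.00642% of all tested genes called in either direction by limma). All 9 overlapped between the groups (background, 3.16% of all tested genes higher and 2.21% lower without overlap). The log2 fold changes ranged from -0.03 for *Tcf7* to 0.08 for *Klf2*, and 4 of the 9 lay below 0. The 95% intervals bound the differences that these libraries could hide. For *Tcf7* the interval was -0.34 to 0.28, for *S1pr1* -0.29 to 0.40, for *Klf2* -0.29 to 0.45, and the widest was that of *Satb1*, -0.64 to 0.60. Ratios of YFP+ to YFP- within a replicate number ran from 0.945 to 1.10 over the 27 pairs, and 19 of these pairs were above 1. In 3 of 3 pairs 5 of the 9 genes were higher and 1 lower (16.2% and 12.9% of all tested genes).

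In TEM cells *Satb1* was higher with a GM-CSF history. All 3 YFP+ libraries (6887 to 17918 normalized counts) lay above all 3 YFP- libraries (2342 to 3806), and the ratio of YFP+ to YFP- was 4.71, 2.94 and 3.18 in replicates 1, 2 and 3. The log2 fold change was 1.82 (SE 0.29, adjusted p = 0.00178), or 3.53-fold, and *Satb1* stood at place 281 from the highest of 15587 genes. It was 1 of 9 genes called (background, 2.3% of all tested genes called higher and 6.97% in either direction) and the only one of the 9 without overlap (background, 10.6% of all tested genes higher without overlap). The call held in all 12 fits that left out 1 library, with log2 fold changes from 1.49 to 2.18. Even in YFP+ TEM cells the mean of 12250 ± 5522 normalized counts remained below the 62914 ± 7888 of YFP+ naïve cells.

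*Lef1* and *Bach2* came next, with log2 fold changes of 0.42 (SE 0.22, 95% interval -0.05 to 0.89, adjusted p = 0.373) and 0.45 (SE 0.24, 95% interval -0.07 to 0.97, adjusted p = 0.408). Their groups overlapped, yet the ratio of YFP+ to YFP- within a replicate was 1.52, 1.17 and 1.35 for *Lef1* and 1.39, 1.28 and 1.42 for *Bach2*. With the replicate number as a block, the adjusted p was 0.00246 for *Lef1* and 0.000791 for *Bach2*, so that 3 of the 9 genes passed. Over all alternatives the adjusted p ranged from 0.00246 to 0.804 for *Lef1* and from 0.000791 to 0.817 for *Bach2*. The other 6 genes had log2 fold changes from 0.09 (*Tcf7*) to 0.18 (*Foxo1*), with adjusted p of 0.691 or more and intervals that reached 0.40 for *Tcf7*, 0.50 for *Klf2* and 0.51 for *S1pr1*.

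All 27 ratios of YFP+ to YFP- TEM libraries of the same replicate number were above 1, from 1.02 to 4.71, so that 9 of 9 genes were higher in 3 of 3 pairs (3 of 3 pairs higher in 23.0% of all tested genes). The 9 genes vary together between libraries and are not independent. Under quantile normalization the log2 fold change of *Tcf7* was -0.00055 and the other 8 remained above 0, and under TMM factors all 9 were above 0.

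**Figure D3:**
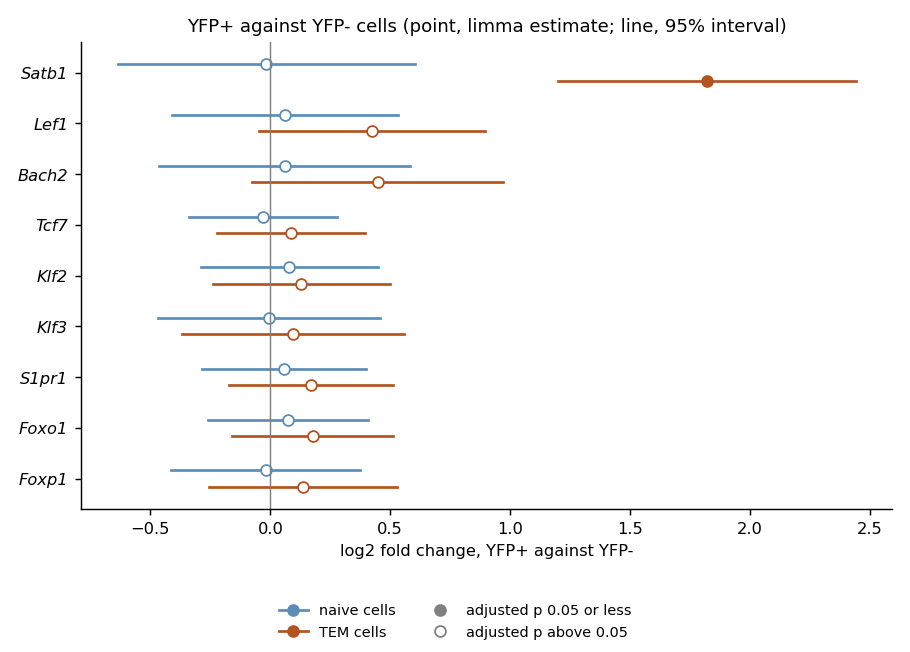
Log2 fold change of YFP+ against YFP- cells (x axis) for the 9 genes, in naïve and in TEM cells, with limma estimates as points (filled at an adjusted p of 0.05 or less) and 95% intervals as lines. All intervals span 0 apart from that of *Satb1* in TEM cells, which ends at 2.44.

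The difference between the YFP effect in TEM cells and that in naïve cells was tested as an interaction. For *Satb1* it was 1.84 on the log2 scale (SE 0.40, adjusted p = 0.0255), and it was called in 6 of 12 fits that left out 1 library, with values from 1.51 to 2.20 and adjusted p from 0.00407 to 0.0683. The call was lost without YFP- naïve replicate 1 (1.75) or 2 (1.83), YFP+ naïve replicate 3 (1.74), YFP- TEM replicate 2 (1.61) or 3 (1.95) and YFP+ TEM replicate 3 (1.80). *Satb1* was 1 of 9 genes called (background, 0.828% of all tested genes called higher, 2.73% lower and 3.55% in either direction). *Bach2* had an interaction of 0.39 (SE 0.34, adjusted p = 0.864), and with the replicate block its adjusted p was 0.0221, in a range from 0.0221 to 0.985 over the alternatives. For *Lef1* the value was 0.36 (SE 0.31, adjusted p = 0.857). The remaining 6 genes lay between 0.05 (*Klf2*) and 0.16 (*Foxp1*). Since the interaction is also the difference between the falls from naïve to TEM cells, *Satb1* is the gene of the 9 whose fall differed with YFP status in the fit without a block.

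Markers of other cells and of regulatory T cells also differed between YFP+ and YFP- TEM cells. In this comparison 4.67% of all tested genes were called lower and 2.3% higher. Plasmacytoid dendritic cell genes were called lower in YFP+ cells for 7 of 10, with sums of 12649 to 13516 normalized counts against 19033 to 28529 in YFP- TEM libraries. Monocyte and conventional dendritic cell genes were called lower for 5 of 10, with sums of 2147 to 4399 against 12428 to 24408. NK cell genes were called higher for 5 of 8, with sums of 8190 to 13435 against 2892 to 4102 and *Ncr1* at 0 in all YFP- TEM libraries. Among 5 genes of γδ T cells 4 were tested and 2 called higher (*Trgc1* and *Trgc2*), while 1 of the 4 lay below 0. The sums were 1603 to 3071 against 393 to 508, with *Sox13* at 0 in all YFP- TEM libraries. *Trdc* was not called here, and in TEM against naïve cells it was called lower (-1.13 without and -1.20 with YFP). Of 9 B cell genes 2 were called higher, with sums of 410 to 1087 against 485 to 651. Both CD8 genes were called lower, with sums of 187 to 373 against 685 to 1490, and 1 of 6 regulatory T cell genes (*Foxp3*) was called lower by limma and none by edgeR (3 at an unadjusted p under 0.05, 2 by DESeq2), with sums of 43448 to 48887 against 52141 to 71708. The sums of the 8 genes of CD4+ T cells were 253464 to 277177 against 225817 to 267319. The part of these transcripts in the difference of *Satb1* was not tested.

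Many of the 9 genes also varied together among the libraries of a group. Replicate 1 was the highest of its group in all 4 groups for 7 of the 9 genes, against 7.65% of all tested genes (1192 of 15587). The exceptions were *Tcf7* and *Foxo1*, each with replicate 1 highest in 2 groups. On the log2 scale replicate 1 stood above the group mean by 0.40 for *Bach2*, 0.35 for *Lef1* and 0.33 for *Klf3* on average over the groups, and by 0.09 for *Tcf7*. After group means were removed, the Pearson correlation over the 12 libraries was 0.98 for *Klf3* with *Foxp1*, 0.962 for *Klf2* with *Foxp1*, 0.906 for *Lef1* with *Bach2* and 0.862 for *Klf2* with *S1pr1*. Not all pairs did so: the lowest value was -0.147 for *Tcf7* with *Satb1*, and *Foxo1* had -0.049 with *Tcf7*, 0.344 with *Klf2*, 0.663 with *Satb1* and 0.680 with *Lef1*. These values describe 12 libraries in 4 groups, and no test was made of them.

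**Figure D4:**
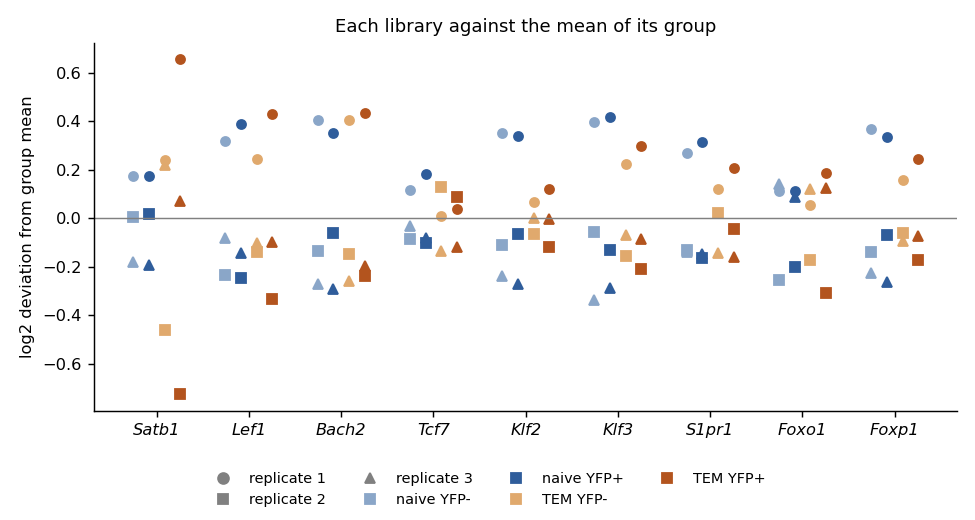
Log2 deviation of each library from the mean of its group (y axis) for the 9 genes, coloured by group, with the replicate as symbol shape. Replicate 1 is the highest in all 4 groups for 7 genes, the exceptions being *Tcf7* and *Foxo1*, and the widest spread is that of *Satb1* in YFP+ TEM cells.

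Genes with the most similar pattern over the 12 libraries were sought among 11904 genes, those averaging 50 normalized counts or more. For *Satb1* the closest were *Tecpr1* (Pearson r = 0.994), *Slc25a23* (0.992) and *Znrf3* (0.991). For *Lef1* they were *Macrod1* (0.998), *Vipr1* (0.995) and *Tdrp* (0.994), and for *Bach2* *Daxx* (0.997), *Macrod1* (0.995) and *Klf13* (0.995). *Tcf7* was closest to *Peli1* (0.995), *Itm2a* (0.994) and *Ifit2* (0.992), *Klf2* to *Ripor2* (0.994), *Klf13* (0.990) and *Ets2* (0.988), and *S1pr1* to *Ttc27* (0.997), *Tgfbr3* (0.995) and *Ripor2* (0.992). *Foxo1* was closest to *Ptp4a3* (0.997), *Ppp2r5a* (0.994) and *Bcl9l* (0.993), *Foxp1* to *Ets2* (0.996), *Frat1* (0.993) and *Klf13* (0.993), and *Klf3*, with lower values, to *Traf6* (0.976), *Xpo4* (0.972) and *Zfp39* (0.970). The coefficients were taken over naïve and TEM libraries together, with group means kept, so the difference between these cells enters each of them. In YFP- naïve and YFP- TEM cells *Klf13* had means of 55871 and 20669 normalized counts. *Peli1* had 20164 and 8032, and *Ripor2* 32010 and 17815. Levels of most of the other correlated genes are not given here, and the coefficients are a description without a test.

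Relatives of the 9 genes did not share their direction. Of 29 paralogues listed, 27 were in the table (*Klf14* and *Klf17* were not listed there) and 24 passed the filter, with *Klf15*, *Foxo6* and *Foxp2* below it. In YFP- cells 4 were called lower in TEM and 10 higher (background, 19.9% lower and 29.9% higher). In YFP+ cells 4 were called lower and 8 higher (background, 16.7% lower and 24.7% higher). The counts called lower were near the background shares, and the median log2 fold change was 0.23 and 0.28. Falls were seen in *Klf13* (-1.42 and -1.22), *Klf7* (-1.66 and -1.60), *Tcf7l1* (-1.79 and -0.78) and *Bach1* (-0.63 and -0.67), each given without and with YFP. With 1 library left out, *Tcf7l1* was called in 8 of 12 fits with YFP, and *Bach1* in 9 of 12 without and 10 of 12 with YFP. *Klf13* was the most abundant of these, at 55871 ± 9222 normalized counts in YFP- naïve and 20669 ± 1556 in YFP- TEM cells.

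Other Krüppel-like factor genes rose in TEM cells. *Klf4* had a log2 fold change of 3.39 without and 2.50 with YFP, *Klf12* of 3.89 and 5.42, *Klf10* of 1.56 and 1.53, *Klf8* of 1.44 and 0.94 and *Klf9* of 1.07 and 1.59, all of them called, although *Klf9* without YFP was called in 9 of 12 fits that left out 1 library. Their levels stayed below that of *Klf2*, since *Klf4* reached 1150 ± 197 and *Klf10* 1847 ± 109 normalized counts in YFP- TEM cells, counts that are not scaled by length. *Klf6*, *Klf11* and *Klf16* were not called in either comparison, and *Klf6* had 14626 ± 2998 normalized counts in YFP- naïve and 12978 ± 1404 in YFP- TEM cells. *Klf1* and *Klf5*, with means of at most 9.03 normalized counts, were not called.

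Among the receptors for sphingosine-1-phosphate, *S1pr2*, which holds cells back from migration, was called higher in TEM cells with log2 fold changes of 1.99 (SE 0.18) and 2.29 (SE 0.18) while *S1pr1* was called lower. *S1pr2* rose from 314 ± 64.0 to 1242 ± 216 normalized counts in YFP- cells, still far under the 14345 ± 1303 of *S1pr1*. *S1pr4* was not called, with 7782 ± 566 and 6778 ± 399 normalized counts in YFP- naïve and TEM cells. *S1pr3* was called higher in YFP+ TEM cells (3.70, adjusted p = 0.0028) and had 1.77 with an adjusted p of 0.088 in YFP- cells, and its interaction of 1.93 was not called (adjusted p = 0.64). *S1pr5* was called in YFP- cells (3.19, adjusted p = 0.033) at a mean of 22.0 ± 13.8 normalized counts and in 8 of 12 fits that left out 1 library, with 2.90 and an adjusted p of 0.057 in YFP+ cells.

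The forkhead relatives *Foxo3*, *Foxo4* and *Foxp4* were not called in either comparison, whereas *Foxp3*, the master factor of regulatory T cells, rose by 2.75 without and 2.82 with YFP. *Tcf7l2* was called higher in YFP- TEM cells (3.05, adjusted p = 0.00077) and was at 0.29 (adjusted p = 0.72) in YFP+ cells. In the comparison of YFP+ with YFP- TEM cells 2 of the 24 relatives were called, both lower (background, 4.67%): *Tcf7l2* (-2.65, adjusted p = 0.013) and *Foxp3* (-0.87, adjusted p = 0.045). The call of *Foxp3* held in 5 of 12 fits that left out 1 library, with an adjusted p of up to 0.189 (without YFP- TEM replicate 3), and that of *Tcf7l2* in 10 of 12, being lost without YFP- TEM replicate 1 or 3. Within naïve cells 0 of 24 were called by limma, edgeR or DESeq2, with 1 at an unadjusted p under 0.05. The interaction gave 0 of 24 in limma and edgeR and 1 in DESeq2, with 3 at an unadjusted p under 0.05.

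**Figure D5:**
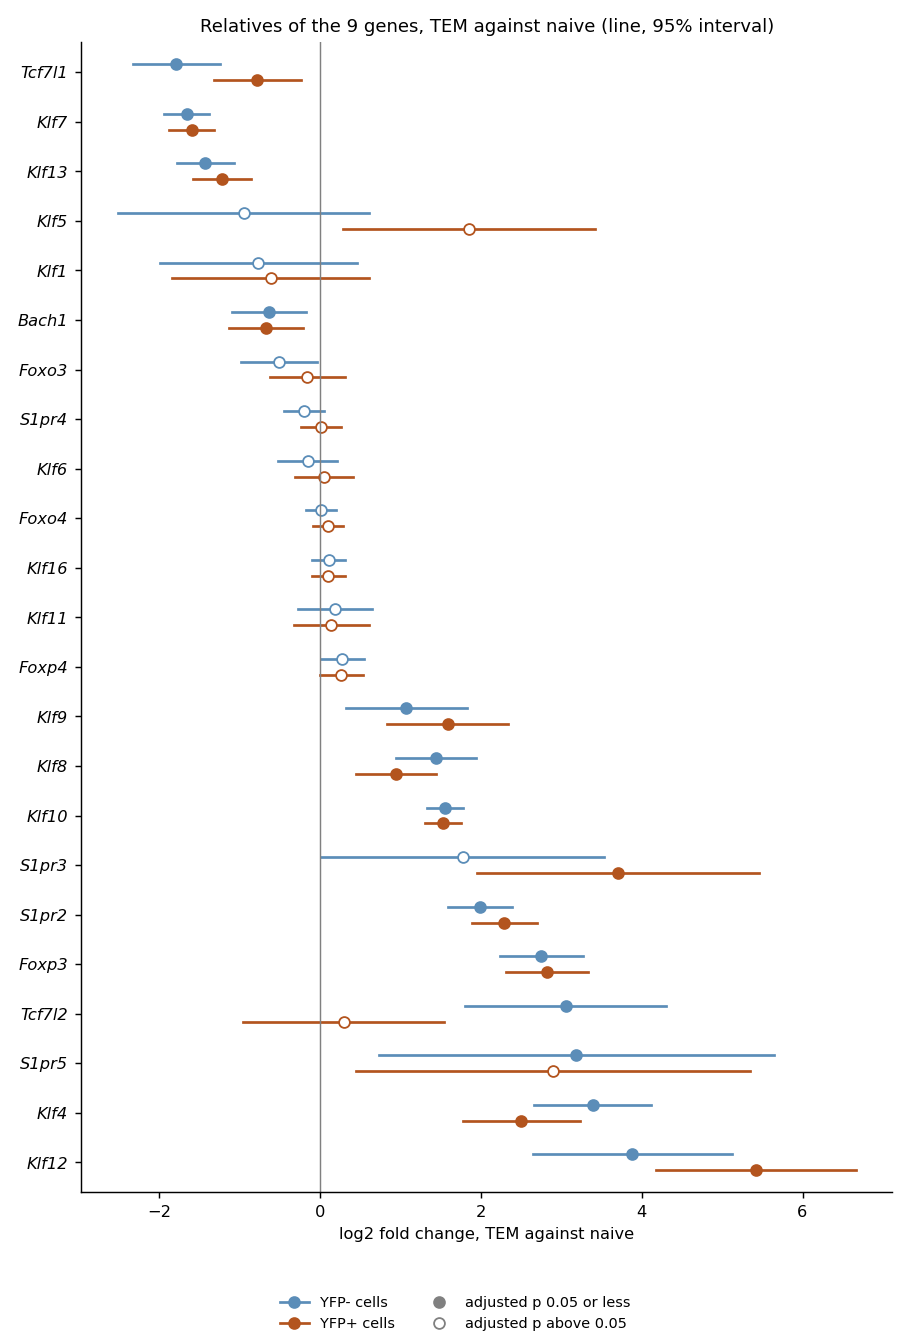
Log2 fold change of TEM against naïve cells (x axis) for tested paralogues of the 9 genes, in YFP- and in YFP+ cells, with limma estimates as points (filled at an adjusted p of 0.05 or less) and 95% intervals as lines. *Tcf7l1*, *Klf7*, *Klf13* and *Bach1* lie below 0 and *Klf12*, *Klf4*, *Foxp3* and *S1pr2* well above it.

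Genes around the 9 in the same circuits were counted by list. Of 14 genes of naïve homing and survival, 13 were called lower in YFP- TEM (background, 19.9% lower and 29.9% higher) and 12 in YFP+ TEM cells (background, 16.7% lower and 24.7% higher, the shares to set beside the counts of all the lists that follow). The steepest fall was in *Igfbp4* (-7.90 and -7.24), while *Ramp1* passed in neither comparison and *Il7r*, the receptor for the survival cytokine IL-7 and a FOXO1 target, was called lower without YFP (-0.66) and was at -0.02 (adjusted p = 0.91) with YFP. Of 21 further regulators of quiescence, 9 were called lower and 2 higher without YFP, and 6 lower and 2 higher with YFP. *Pik3ip1*, a brake on PI3K, (-1.90 and -1.55) and *Peli1* (-1.32 and -1.17) fell, and *Mxd4* (1.34 and 1.41) and *Tob2* (0.27 and 0.23) rose. With 1 library left out, *Tob2* was called in 10 of 12 fits without YFP and in 5 of 12 with YFP (adjusted p of up to 0.137, without YFP+ TEM replicate 3). In contrast to the 9 genes, 14 of 15 effector regulators were called higher in each comparison and none lower, led by *Bhlhe40* (6.25 and 6.17) and *Tbx21*, which encodes T-bet (6.14 and 6.98).

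Of 9 tested genes of sphingosine-1-phosphate handling and receptor signalling other than the receptors, 4 were called lower and 1 higher without YFP, and 2 lower and 1 higher with YFP. *Cd69*, whose product removes S1PR1 from the cell surface, fell with *S1pr1* (-0.79 and -0.46), and *Sgpl1*, the lyase that degrades the lipid, rose (0.68 and 0.51). Of 12 genes between PI3K and FOXO1, 5 were called lower and 2 higher without YFP and 3 each way with YFP, the latter near the background shares. *Sgk1* (-1.23 and -0.91) and *Rictor* (-0.91 and -0.71) fell, and *Akt1*, whose product inactivates FOXO1, rose by 0.57 and 0.45. Of 13 partners and feedback genes of TCF/LEF factors, 7 were called lower and 2 higher without YFP (background, 19.9% and 29.9%), and 3 lower and 2 higher with YFP (background, 16.7% and 24.7%). The corepressor gene *Tle1* (-1.93 and -2.36) fell, as did *Tle2* without YFP (-1.22, called in 9 of 12 fits that left out 1 library), and *Axin2*, a common target of β-catenin with TCF factors, rose by 0.74 and 0.92, with *Tle3* (0.66 and 0.54, the latter not called without YFP+ naïve replicate 2). *Ctnnb1* (β-catenin) was not called in either comparison, at -0.09 and -0.05.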

How the data were processed

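RNA was measured in 12 libraries, 3 for each combination of naïve or TEM and YFP- or YFP+ CD4+ T cells. The authors prepared stranded total RNA libraries, mapped reads to mm10 with DRAGEN and counted them on genes with Rsubread (versions, annotation and strand setting not given in the sources used here). The deposited signal consists of normalized counts, that is reads divided by DESeq2 size factors, for 17523 genes, and 0 columns were left unused. Whole reads were recovered from 100% of the values within a tolerance of 0.0001, with 40974124 to 57822269 reads per library. Dividing by a size factor assumes that most genes do not change.

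Entrez identifiers gave symbols and positions through RefSeq (GRCm38.p6), exon lengths were taken from GENCODE M21, and promoter windows from RefSeq. A gene was kept where 3 or more libraries reached 5 normalized counts, which 15587 did. After 1 was added, log2 values were fitted with limma 3.58.1 under R 4.3.3, using 4 group means, a variance trend and 8 residual degrees of freedom. Contrasts were TEM against naïve in YFP- and in YFP+ cells, YFP+ against YFP- in naïve and in TEM cells, and the difference between the last 2. Intervals are at 95%. The share of true changes that the fit missed, and the share of false calls, was not tested in these data.

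The 9 genes and the lists around them were chosen with earlier results of these data known. Named were the 9 genes, all tested paralogues, in each other list the 2 largest called rises and falls from naïve to TEM in YFP- cells, called genes of a list in the other comparisons, the sort markers, and the 3 most correlated genes of each of the 9. Some genes under this rule are not reported here, though the counts by list include them. Markers of other cell types and of regulatory T cells were summarised by list. Alternatives were prior counts of 0.1 and 5, TMM factors, quantile normalization, dropping the filter or asking for a mean of 10 or more, the 6 libraries compared, the replicate block, no variance trend, edgeR 4.0.16 and DESeq2 1.42.0 on recovered reads, a log2 fold change of at least 1 for counts of genes, and leaving out each library.

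The study gives 3 mice for the sequencing and names a paired test for part of the results on these cells, but neither it nor the labels say that a replicate number marks a mouse. P-values measure the spread between these libraries. Libraries of the same number deviated together, with correlations after removal of group means of 0.306, 0.491 and 0.360 between YFP- and YFP+ naïve, 0.180, 0.338 and 0.356 between YFP- and YFP+ TEM, 0.168, 0.137 and 0.232 between YFP- naïve and YFP- TEM, but 0.204, -0.0199 and 0.0561 between YFP+ naïve and YFP+ TEM libraries. The numbers were therefore read as pairs, from the data, in all comparisons other than TEM against naïve YFP+ cells. The main fit held group means only, so its SEs, intervals and p-values leave this pairing out. The pairing enters only the ratios within a replicate number and the replicate block, which is an alternative. With that block *Lef1* and *Bach2* were also called for YFP in TEM cells.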

Additional observations from a re-analysis of the deposited data

Results flagged for a closer look

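The effect of YFP status on *Satb1* differed between TEM and naïve cells by 1.84 on the log2 scale (SE 0.40, adjusted p = 0.0255 in limma). The log2 fold change of YFP+ against YFP- cells was 1.82 in TEM and -0.02 in naïve cells, and the YFP+ library was higher in 3 of 3 TEM pairs. This difference was flagged because the interaction itself passed the test, and over the alternatives its adjusted p ranged from 0.0001 to 0.0715. Groups of 3 libraries were not examined for outlying samples.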

How the results depend on the processing

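Of the 9 genes, 9 remained called lower in YFP- TEM cells and 8 in YFP+ TEM cells under the alternatives, with exceptions that concern *Klf3*. In YFP- cells *Klf3* was called in 7 of 12 fits that left out 1 library and had an adjusted p of 0.0801 without the variance trend. Its log2 fold change there, -0.57, also fell short of the alternative that asks for at least 1 in either direction. With the replicate block *Klf3* in YFP+ cells passed (adjusted p = 0.00119), which gave 9 of 9, although the numbers do not pair those libraries. With the replicate block 3 of 9 genes were called for YFP in TEM cells (*Satb1*, *Lef1* and *Bach2*) and 2 of 9 for the interaction (*Satb1* and *Bach2*), and the block changed no other call of the 9. Without the variance trend the interaction gave 0 of 9 (*Satb1* at an adjusted p of 0.0715), and leaving out 1 library gave 0 to 1 of 9.

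Differences near 0 changed sign when 1 library was left out. For YFP in naïve cells the log2 fold change then ranged from -0.12 to 0.026 for *Tcf7*, -0.13 to 0.22 for *Lef1*, -0.091 to 0.25 for *Klf2*, -0.21 to 0.19 for *Klf3*, -0.10 to 0.19 for *S1pr1*, -0.12 to 0.26 for *Bach2*, -0.11 to 0.079 for *Satb1*, -0.053 to 0.17 for *Foxo1* and -0.19 to 0.16 for *Foxp1*. For YFP in TEM cells it ranged from -0.055 to 0.21 for *Klf3*, and for the interaction from -0.13 to 0.22 for *Klf2*, -0.10 to 0.31 for *Klf3*, -0.024 to 0.27 for *S1pr1* and -0.028 to 0.32 for *Foxp1*. Quantile normalization moved *Tcf7* for YFP in TEM cells to -0.00055.

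Over all genes, a log2 fold change of at least 1 left 4120 of 7769 calls for YFP- and 3319 of 6453 for YFP+ TEM against naïve cells. The block gave 1869 calls in place of 1087 for YFP in TEM cells and 890 in place of 554 for the interaction, for which DESeq2 gave 844. For YFP in naïve cells the count was 1, and between 0 and 14 under the alternatives. Leaving out 1 library gave 638 to 1253 calls for YFP in TEM cells and 279 to 531 for the interaction. Quantile normalization shifted the median gene by -0.37 in YFP- and -0.22 in YFP+ TEM against naïve cells, and the median of the 9 genes was then -1.10 and -0.99. Where a fit leaves 2 libraries in a group, they are assumed to vary like the others. The cause of these changes was not tested.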

Other observations

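Genes of other lists also differed between YFP+ and YFP- TEM cells. *Bcl2*, an inhibitor of cell death, was higher in YFP+ TEM cells by 1.16 on the log2 scale (SE 0.10, adjusted p = 9.6e-05), with means of 10784 ± 1329 against 4803 ± 333 normalized counts, and its interaction of 0.80 was called as well (adjusted p = 0.011). *Il7r* was higher by 0.84 (SE 0.13, adjusted p = 0.0017), at 69036 ± 10665 against 38376 ± 3861 normalized counts, with an interaction of 0.64 that was not called (adjusted p = 0.093). Among effector regulators, *Id2* (0.96, adjusted p = 0.0015), *Ikzf3* (0.47, adjusted p = 0.019) and *Tbx21* (0.68, adjusted p = 0.048) were higher, with *Ikzf3* called in 7 of 12 and *Tbx21* in 5 of 12 fits that left out 1 library. *Cd69* was higher by 0.36 (adjusted p = 0.031), called in 8 of 12 such fits with an adjusted p of up to 0.146 (without YFP- TEM replicate 3). The part of other cell types in these values was not tested.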
